A study of Mus musculus with 6 samples.

Results

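The levels of 10 genes of the response to glucocorticoids, thyroid hormone and progesterone were measured in cultured mouse myospheres: Nr3c1, Tsc22d3, Fkbp5, Per1, Sgk1, Hsd11b1, Thra, Thrb, Dio2 and Pgr. They were chosen by name, because the B27 supplement of the culture medium is known to carry corticosterone, triiodothyronine and progesterone, and every probe set that the platform annotation gives to 1 of them alone was taken. Earlier results of these data were known when the 10 genes and the gene lists used below were chosen. The 10 genes, of 18194 measured, were read by 26 of 45265 probe sets, 18 on the Affymetrix chip MOE430A and 8 on MOE430B. Of the 10 genes, 6 gave a signal above background on all 3 arrays of a chip: the glucocorticoid receptor gene Nr3c1, its targets Fkbp5 and Sgk1, the corticosterone-producing enzyme gene Hsd11b1, the thyroid hormone receptor gene Thra and the deiodinase gene Dio2. Tsc22d3, Per1, Thrb and Pgr did not.

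Myospheres are floating clusters of cells. The series holds 1 kind of sample: cells from the hind-leg muscle of male Balb/c mice, enriched by flow cytometry for the surface antigen Sca1 and kept for 4 days in NeuroCult medium with the additives bf6f, B27, EGF and LIF. Total RNA came from 2000000 cells at passage 1. Replicates 1, 2 and 3 were each hybridised to both chips, which gives 6 arrays and no second condition. Whether the replicates came from separate cultures is not stated, so the spread between arrays, and any p-value made from it, may be technical. All arrays share the medium and its hormones, so no value below shows that a hormone raised or lowered a gene. In a bulk sample, fewer cells expressing a gene and less RNA per cell cannot be told apart.

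Glucocorticoids and progesterone enter the cell and bind receptors of the nuclear receptor family, which are held ready by heat shock chaperones and then act on DNA as transcription factors. Thyroid hormone receptors sit on DNA with or without hormone, paired with retinoid X receptors, and exchange corepressors for coactivators when triiodothyronine binds. Enzymes inside the cell set the local supply: Hsd11b1 makes active corticosterone from its inert ketone, and Dio2 makes triiodothyronine from thyroxine. In muscle, glucocorticoids are known for protein breakdown and thyroid hormone for myogenesis and fibre type.

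The values are MAS5 signals, a linear brightness per probe set that the authors scaled array by array. Background was taken from genes of other tissues, such as odorant and taste receptors: the 95th percentile of their probe sets served as the limit of each array. For replicates 1, 2 and 3 the limit was 819, 783 and 821 with MOE430A and 3237, 2929 and 2542 with MOE430B. The median signal of all probe sets was 595, 547 and 609 with MOE430A and 861, 969.7 and 943 with MOE430B. The MOE430B limit thus lay further above its median, and a probe set below it can still be brighter than most of that chip. To count as above, a probe set had to exceed the limit on each of the 3 arrays, and a gene needed 1 such probe set. By this rule 36.2% of all measured genes were above. The share grew with the number of probe sets, from 22.1% for 1 probe set, through 42.3% for 2 to 59.2% for 3 or more, and 6 of the 10 genes have 3 or more. Whether a probe set's distance from the limit exceeded the spread between arrays was tested with limma on log2(signal / limit), with Benjamini-Hochberg adjustment over all probe sets of the chip. The limit entered as a fixed number. The error of estimating it, from 152 reference probe sets on MOE430A and 44 on MOE430B, is in neither the SE nor the p-values. The ratio to the limit also chose a gene's best probe set and the list genes named here, but it gives no order of expression between genes, since probe affinity differs. For list genes, the values given are those of the best probe set.

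By that test 8 of the 18 MOE430A probe sets were above the limit, against 32.7% of all probe sets of that chip, and 4 were below it, against 47.7%. On MOE430B 0 of 8 were above, against 8.79% of the chip, and 5 were below, against 73.2% (limma; none of the 8 was above at an unadjusted p under 0.05). The remaining 9 could not be placed on either side. The same 8 probe sets were above by the rule of 3 arrays, where the share of all probe sets was 35.2% on MOE430A and 10.3% on MOE430B. The median ratio of mean signal to limit, taking each gene's best probe set, was 2.73 over the 10 genes and 0.776 over all genes. The best probe set is the highest of a gene, which favours genes with many. Neither this median nor those of the lists below were matched for the number of probe sets.

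**Figure D1:**
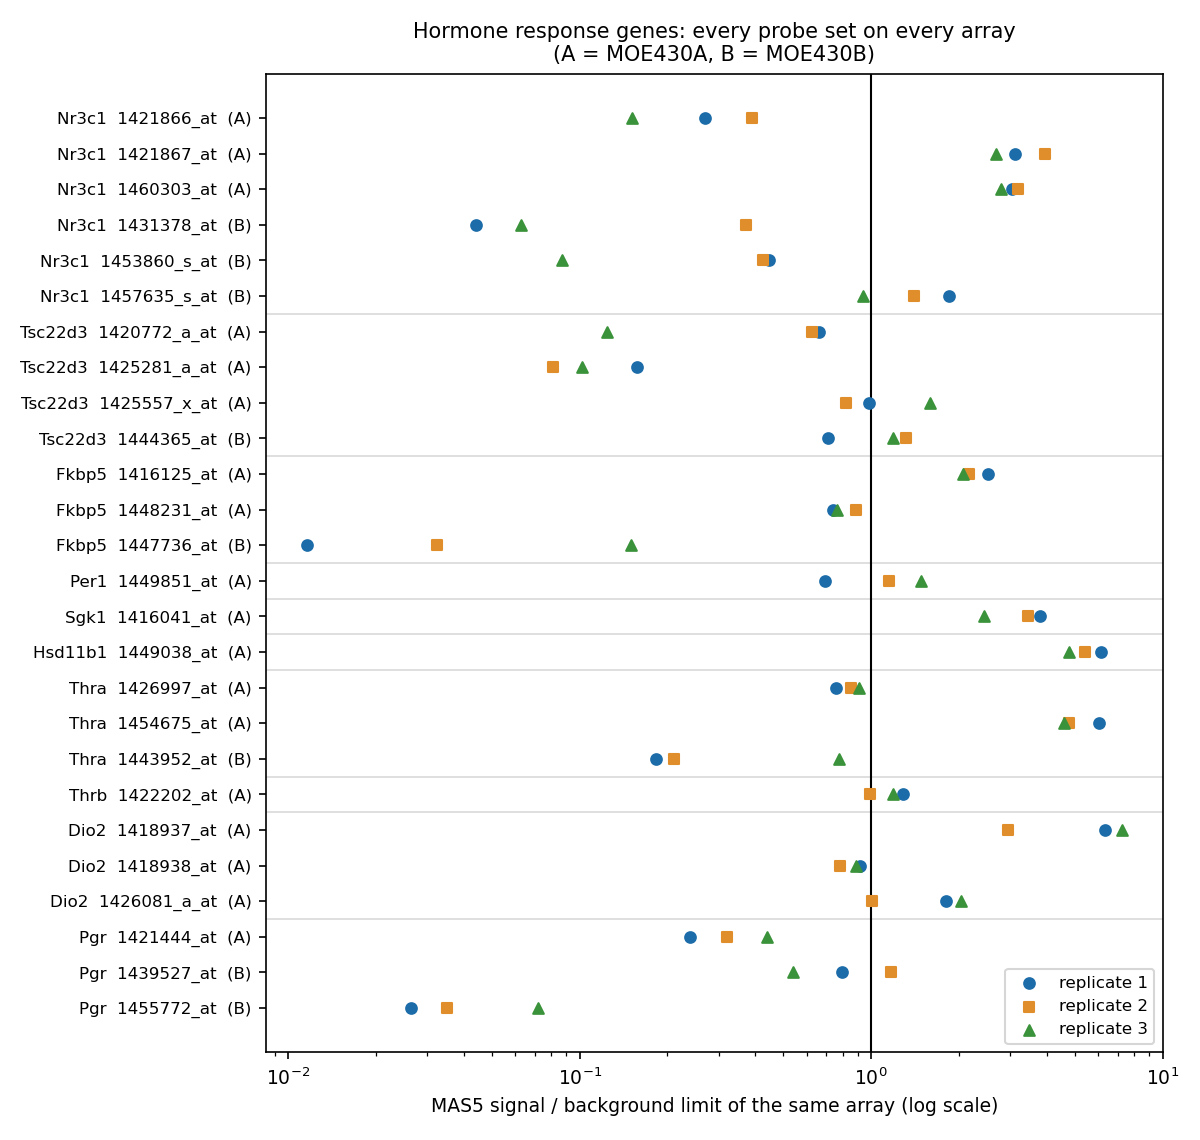
MAS5 signal divided by the background limit of the same array (horizontal log axis, no unit) for each of the 26 probe sets of the 10 genes, with 1 symbol per replicate; the vertical line at 1 is the limit. Nr3c1, Fkbp5, Thra and Dio2 each have probe sets on both sides of the line, while the single probe sets of Sgk1 and Hsd11b1 lie above it on all 3 arrays.

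The glucocorticoid receptor gene Nr3c1 was read by 6 probe sets, which disagreed. Probe set 1460303_at gave 2495, 2493 and 2287 in replicates 1, 2 and 3, and 1421867_at gave 2546, 3106 and 2191. Both were above the limit on every array, by 1.59 ± 0.10 (SE) and 1.68 ± 0.13 on the log2 scale (limma, adjusted p = 5.43e-06 and 1.65e-05). The other MOE430A probe set, 1421866_at, gave 221, 306 and 124, all below the limit, by -1.99 ± 0.42 (limma, adjusted p = 0.00383).

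On MOE430B, Nr3c1 probe set 1457635_s_at gave 5982, 4111 and 2381, above that chip's limit in replicates 1 and 2 and below it in replicate 3 (limma, log2 ratio 0.43 ± 0.23, adjusted p = 0.0994). Without replicate 3 it passed, at 0.69 (limma, adjusted p = 0.0141). The other MOE430B probe sets, 1453860_s_at and 1431378_at, were below the limit on all arrays, at means of 969.8 ± 657 and 463 ± 541 (SD, n = 3). With the gene kept only as its probe set of highest mean signal, which is 1457635_s_at, Nr3c1 was no longer above, as its lowest array reached 0.937 of the limit.

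Replicate 3 was the lowest array for 5 of the 6 Nr3c1 probe sets, of which only 2 were above the limit on all 3 arrays. Of all probe sets above the limit, it was lowest for 31.9% on MOE430A and 38.5% on MOE430B. Those shares leave out dimmer probe sets, so they are not of the same kind as the count of 5. The Nr3c1 probe sets with a mean above the limit were 1460303_at and 1421867_at on MOE430A and 1457635_s_at alone on MOE430B. From replicate 1 to replicate 3 they went from 2495 to 2287, 2546 to 2191 and 5982 to 2381, the fall being largest on MOE430B. Averaged over these probe sets of both chips, Nr3c1 had a log2 signal of 11.92 in replicate 1 and 11.17 in replicate 3. These were the extremes, a difference of 0.75 ± 0.28 (SE). This did not pass (limma F-test with the chip as covariate, adjusted p = 0.334; unadjusted p = 0.0232), and 6 of 622 genes (0.965%) passed that test. Tsc22d3, the only other of the 10 genes in it, differed by 0.54 ± 0.36 (limma, adjusted p = 0.846). The MOE430B array of replicate 1 came from another chip lot than those of replicates 2 and 3, and its probe sets above the limit read higher than the mean of the other replicates by 0.18 (median log2 difference). The part of that offset in the Nr3c1 difference was not tested.

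Among the proteins that hold the receptor ready and the enzymes and cofactors around it, 12 of 17 measured genes were above the limit (70.6%, against 36.2% of all measured genes). The listed chaperone genes Hsp90ab1 and Ptges3 were not analysed here. The chaperone gene Hspa8 gave 70489 ± 2172 by an _x_at probe set and Hsp90aa1 16736 ± 2359.8 by an _a_at one (SD, n = 3). IDs ending in _x_at, _s_at or _a_at mark sequence shared between transcripts, of 1 gene or of several. Bag1, a co-chaperone of Hsp70, gave 3430.3 ± 22.8. H6pd, the enzyme of the endoplasmic reticulum that supplies Hsd11b1 with NADPH, gave 6749.7 ± 1578, and the chromatin remodelling ATPase gene Smarca4 2193 ± 146. Hspa8 was above by 3 of 4 probe sets, Hsp90aa1 by 3 of 5 and Smarca4 by 1 of 2, while Bag1 and H6pd have 1 each. Fkbp4, named after its values were seen, was among the 5 genes not above. Its best of 3 probe sets gave 1009, 782 and 751 (limma, adjusted p = 0.766). Taking the best probe set of each gene, limma placed 12 above the limit and 1 below, where 33.4% and 43.8% of all measured genes fell. The gene below was Nr3c2, the mineralocorticoid receptor, which also binds corticosterone, at 257, 302 and 111 in replicates 1, 2 and 3 on MOE430B (limma, adjusted p = 0.000513).

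The enzyme gene Hsd11b1 has 1 probe set, 1449038_at, which gave 5025, 4235 and 3928 in replicates 1, 2 and 3. All 3 arrays lay well over the limit, the lowest at 4.78 times it (limma, log2 ratio 2.44 ± 0.10, adjusted p = 4.69e-07). Hsd11b2, the enzyme of the opposite reaction, which inactivates corticosterone, gave 624, 968 and 809 on the same chip. It straddled the limit, with 1 of 3 arrays above (limma, log2 ratio -0.04 ± 0.19, adjusted p = 0.869). The difference between the probe sets of the 2 enzymes was not tested.

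Of the glucocorticoid targets, Sgk1, a kinase that regulates ion channels and cell survival, gave 3091, 2707 and 2002 by its 1 probe set, 1416041_at. Each array was above the limit, replicate 3 being the lowest at 2.44 times it (limma, log2 ratio 1.66 ± 0.14, adjusted p = 2.75e-05). The promoter table, from RefSeq on build GRCm38.p6, held 17 start windows for 8 of the 10 genes, each of 250 bases before a start site and 50 after it, and 6 of them belonged to Sgk1. One Sgk1 window carries the full palindrome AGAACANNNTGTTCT, the textbook form of the glucocorticoid response element. It is shown because only 3 of 32851 windows in the table (0.00913%) held it on either strand, and no other window of the 10 genes did. The window is chr10:21993640-21993939, plus strand, and the capitals mark the palindrome, whose first base lies 189 bases before the start site.
Sgk1 promoter window: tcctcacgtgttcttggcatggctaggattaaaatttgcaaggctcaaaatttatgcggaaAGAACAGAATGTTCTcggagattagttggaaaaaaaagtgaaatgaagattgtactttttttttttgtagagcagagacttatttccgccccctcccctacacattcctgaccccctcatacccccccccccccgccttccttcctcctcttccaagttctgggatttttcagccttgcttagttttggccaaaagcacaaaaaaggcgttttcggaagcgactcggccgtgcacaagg

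The shorter core GNACANNNTGTNC, which the palindrome contains, was in 0.475% of all windows and in this window alone among the 17. The half-site TGTTCT, on either strand and also part of the palindrome, was in 19.0% of all windows and in 5 of the 17, belonging to Sgk1, Thrb and Tsc22d3. A match is a run of letters and not a measured binding site. Which of the 6 Sgk1 start sites the cells used was not measured.

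Fkbp5, a co-chaperone that lowers the hormone affinity of the receptor and is itself a receptor target, was above the limit by 1 of 3 probe sets. Probe set 1416125_at gave 2058, 1696 and 1689, at least 2.06 times the limit on every array (limma, log2 ratio 1.16 ± 0.12, adjusted p = 7.51e-05). Probe set 1448231_at gave 607, 696 and 629.5, under the limit on every array but not separable from it (limma, log2 ratio -0.33 ± 0.19, adjusted p = 0.144). On MOE430B 1447736_at gave 37.7, 94.7 and 382, far below (limma, log2 ratio -4.70 ± 0.70, adjusted p = 9.96e-05).

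Tsc22d3, which encodes the leucine zipper protein GILZ and is among the most used reporters of glucocorticoid action, was not above the limit by any of 4 probe sets. Probe set 1425557_x_at gave 807, 643 and 1305, over the limit in replicate 3 alone (limma, log2 ratio 0.12 ± 0.21, adjusted p = 0.612). On MOE430B 1444365_at gave 2307, 3868 and 3023, over it in replicates 2 and 3 (limma, log2 ratio 0.05 ± 0.25, adjusted p = 0.844). These probe sets sat at the limit, whereas 1420772_a_at and 1425281_a_at lay below it, at 378 ± 241 and 91.9 ± 33.3 (SD, n = 3). Their log2 ratios to the limit were -1.43 ± 0.52 and -3.20 ± 0.47 (limma, adjusted p = 0.0348 and 0.000640). The first of these calls was lost without replicate 2 (adjusted p = 0.0503) and without replicate 3 (0.0829), and the gene counted as above without replicate 1, its best probe set then being at least 1.19 times the limit.

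Per1, a clock gene that glucocorticoids induce directly, has 1 probe set, which gave 568, 902 and 1212. Replicate 1 was below the limit and replicates 2 and 3 above it, a 2.13-fold span between arrays (limma, log2 ratio 0.08 ± 0.23, adjusted p = 0.758). Without replicate 1 it counted as above, at no less than 1.15 times the limit.

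Among 24 other genes listed as glucocorticoid targets, 17 were above the limit (70.8%, against 36.2% of all measured genes). Without _x_at, _s_at and _a_at probe sets, 13 of the 22 still measured were above, against 29.6% of all genes. The metallothionein genes Mt2 and Mt1, which buffer metals, gave 105153 ± 18265 and 72432 ± 16577 (SD, n = 3). Nfkbia, which encodes the inhibitor of NF-kappaB, gave 92014 ± 15816, the EGF receptor inhibitor gene Errfi1 54402 ± 1375, and Anxa1, a phospholipid-binding protein of the anti-inflammatory response, 20203 ± 1383. The Mt1 value is from an _s_at probe set. Anxa1 was above by 1 of 2 probe sets, and Mt2, Mt1, Nfkbia and Errfi1 by all of theirs. Mt2, Mt1, Nfkbia, Errfi1 and Anxa1 all answer to other signals too, such as metals, cytokines or growth factors.

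The 7 target genes that were not above are named here after their values were seen. The ubiquitin ligase genes Trim63 and Fbxo32 gave 209 ± 25.1 and 1475 ± 395 on MOE430B (SD, n = 3), and the transcription factor gene Klf15 and the pyruvate dehydrogenase kinase gene Pdk4 gave 153 ± 102 and 96.0 ± 116. Limma placed all 4 below the limit, with adjusted p of 0.000487, 0.0184, 0.00299 and 0.00186. Cdkn1c, a cyclin-dependent kinase inhibitor, and Tat, a liver enzyme, were also below it (limma, adjusted p = 0.0185 and 0.0260), while Zbtb16, at 2226 ± 299 on MOE430B, could not be placed (adjusted p = 0.201). Limma placed 17 of the best probe sets above and 6 below, where 33.4% and 43.8% of all measured genes fell. The median ratio to the limit was 8.08 over the 24 genes and 0.776 over all genes, a description of signals that was not matched for the number of probe sets per gene.

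Thra, which encodes the thyroid hormone receptor of muscle and mesenchymal cells, was above the limit by 1 of 3 probe sets. Probe set 1454675_at gave 4954, 3743 and 3751, at least 4.57 times the limit (limma, log2 ratio 2.35 ± 0.11, adjusted p = 8.47e-07). Probe set 1426997_at gave 619, 666 and 744, close under the limit (limma, log2 ratio -0.26 ± 0.18, adjusted p = 0.222), and 1443952_at on MOE430B 593, 616 and 1976, below it (limma, log2 ratio -1.69 ± 0.52, adjusted p = 0.00882). The last call was lost without replicate 1 (limma, adjusted p = 0.0654).

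Thrb, the receptor gene best known from liver and pituitary, gave 1054, 773 and 974 by its 1 probe set. The arrays of replicates 1 and 3 were above the limit and that of replicate 2 just under it, at 0.987 (limma, log2 ratio 0.20 ± 0.16, adjusted p = 0.277). Without replicate 2 it counted as above.

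Dio2, the enzyme that makes triiodothyronine within the cell, was read by 3 probe sets on MOE430A. Probe set 1418937_at gave 5189.8, 2306 and 5952 in replicates 1, 2 and 3. All arrays were above the limit, the lowest at 2.94 times it, although replicate 2 stood apart (limma, log2 ratio 2.36 ± 0.23, adjusted p = 6.82e-05). Probe set 1426081_a_at gave 1479, 793 and 1674, so that replicate 2 exceeded the limit by a ratio of only 1.01 (limma, log2 ratio 0.63 ± 0.21, adjusted p = 0.0235). That call was lost without replicate 1 (adjusted p = 0.0588) and without replicate 3 (0.132). Probe set 1418938_at gave 752, 611 and 731, below the limit on every array but not separable from it (limma, log2 ratio -0.22 ± 0.18, adjusted p = 0.292).

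All 3 Dio2 probe sets were lowest in replicate 2, which was the lowest array for 39.0% of all MOE430A probe sets above the limit. That share leaves out probe sets not above the limit, such as 1418938_at. The 3 probe sets share the same arrays and are not independent measurements. The mean of replicates 1 and 3 over replicate 2 was 2.42-fold for 1418937_at, 1.99-fold for 1426081_a_at and 1.21-fold for 1418938_at. The SD of log2 signal over the arrays was 0.74 and 0.58 for the probe sets above the limit. Over the 7940 probe sets above it on MOE430A, Affymetrix control probe sets left out, the median SD was 0.19, and these 2 lay at percentiles 99.8 and 98.9. The array of replicate 2 was not low as a whole, with a median log2 difference of -0.03 from the mean of the other replicates. Of the genes chosen by name, the 6 other probe sets above the limit varied less, with SDs of 0.07 to 0.32. A large spread was not particular to Dio2, however. Pdgfrb, a mesenchymal marker above the limit on the same arrays, had an SD of 0.80 by probe set 1436970_a_at. Among probe sets above the limit on some arrays only, Nr3c1 1457635_s_at on MOE430B had 0.67 and Per1 1449851_at on MOE430A 0.55. No MOE430B probe set reads Dio2, so the difference between replicates has no second measurement and was not tested.

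**Figure D2:**
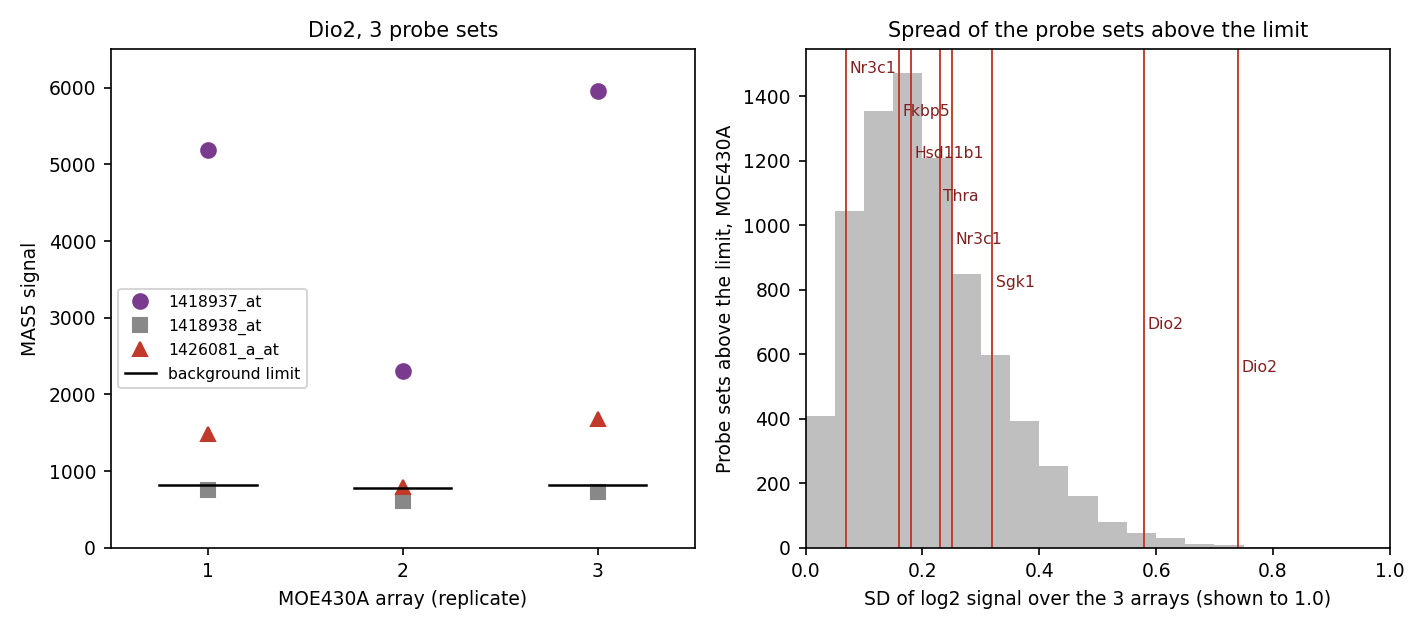
Left, MAS5 signal of the 3 Dio2 probe sets on each MOE430A array, with the background limit of each array as a black line. Right, number of MOE430A probe sets above the limit by the SD of their log2 signal over the 3 arrays (grey bars), with the 8 probe sets of the 10 genes marked by red lines; those of Dio2 lie at 0.58 and 0.74, against a median of 0.19.

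The start window of Dio2 is shown because it was the only one of the 17 with the cAMP response element TGACGTCA, which 1.79% of all windows held on either strand; Dio2 is known as a cAMP target in brown fat. The window is chr12:90738989-90739288, minus strand, build GRCm38.p6, and the capitals mark the element, whose first base lies 95 bases before the start site.
Dio2 promoter window: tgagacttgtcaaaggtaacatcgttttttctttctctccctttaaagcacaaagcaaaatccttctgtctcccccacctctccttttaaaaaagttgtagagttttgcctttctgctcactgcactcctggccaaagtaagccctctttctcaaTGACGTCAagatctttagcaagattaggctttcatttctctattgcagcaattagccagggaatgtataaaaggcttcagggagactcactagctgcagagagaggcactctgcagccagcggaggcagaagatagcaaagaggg

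The direct repeat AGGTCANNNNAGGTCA, the textbook thyroid hormone response element, was in 0 of the 17 windows and in 0.0152% of all. Its half-site AGGTCA, on either strand, was in 4 of the 17, belonging to Per1, Sgk1 and Thrb, and in 16.3% of all.

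Of 16 measured genes for thyroid hormone transport, deiodination and receptor cofactors, 9 were above the limit (56.2%, against 36.2% of all measured genes). They were mostly cofactors: Trip12, a ubiquitin ligase first found by its binding to the receptor, gave 7902 ± 327 (SD, n = 3) and Thrap3, of the receptor-associated proteins, 5133 ± 1038. Tbl1xr1 and Tbl1x, subunits of the corepressor complex, gave 2536 ± 342 and 2444 ± 305, and the deacetylase gene Hdac3 of the same complex 1812 ± 345. These values are from an _a_at probe set for Trip12 and _s_at probe sets for Tbl1xr1 and Hdac3. Trip12 was above by 3 of 7 probe sets, Thrap3 by 1 of 3, Tbl1xr1 by 2 of 6, Tbl1x by 2 of 3 and Hdac3 by its 1. Of the retinoid X receptors, the partners on DNA, Rxra gave 1059.6 ± 216 and Rxrb 1166 ± 138, both above on all 3 arrays, though limma did not place Rxra (adjusted p = 0.0609). Rxra was above by 1 of 3 probe sets and Rxrb by its 1. Rxrg gave 174 ± 109.6, below the limit (limma, adjusted p = 0.00286).

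Dio1, the deiodinase of liver and kidney, gave 66.0, 13.1 and 51.3, far below the limit (limma, log2 ratio -4.51 ± 0.56, adjusted p = 0.000266). The transporter gene Slc7a5, which carries amino acids and thyroid hormone, was above, at 1502 ± 268, while Slco1c1 was not, at 50.8 ± 15.0 (SD, n = 3). Dio3, which inactivates triiodothyronine, was not analysed here. Taking best probe sets, limma placed 8 of the 16 above the limit and 6 below, where 33.4% and 43.8% of all measured genes fell.

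Of 17 measured thyroid hormone target genes, 7 were above the limit. Atp2a2, the calcium pump of slow muscle and non-muscle cells, gave 31152 ± 1184 (SD, n = 3). Klf9, a transcription factor that both hormones induce, gave 11544 ± 381 by an _a_at probe set. The metabolic genes Cpt1a, of fatty acid import into mitochondria, Me1, malic enzyme, and Gpd2, of the glycerol phosphate shuttle, gave 2120.4 ± 85.0, 1714 ± 184 and 1706 ± 245. Most of these genes also had probe sets that were not above. Atp2a2 was above by 3 of 6 probe sets, Klf9 by 3 of 7, Cpt1a by 1 of 3, Me1 by 1 of 2 and Gpd2 by 1 of 4. Limma placed 7 of the 17 best probe sets above the limit and 6 below, where 33.4% and 43.8% of all measured genes fell. The median ratio of this list was 0.815, against 0.776 over all genes, and its share above, 41.2%, was near the 36.2% of all genes.

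**Figure D3:**
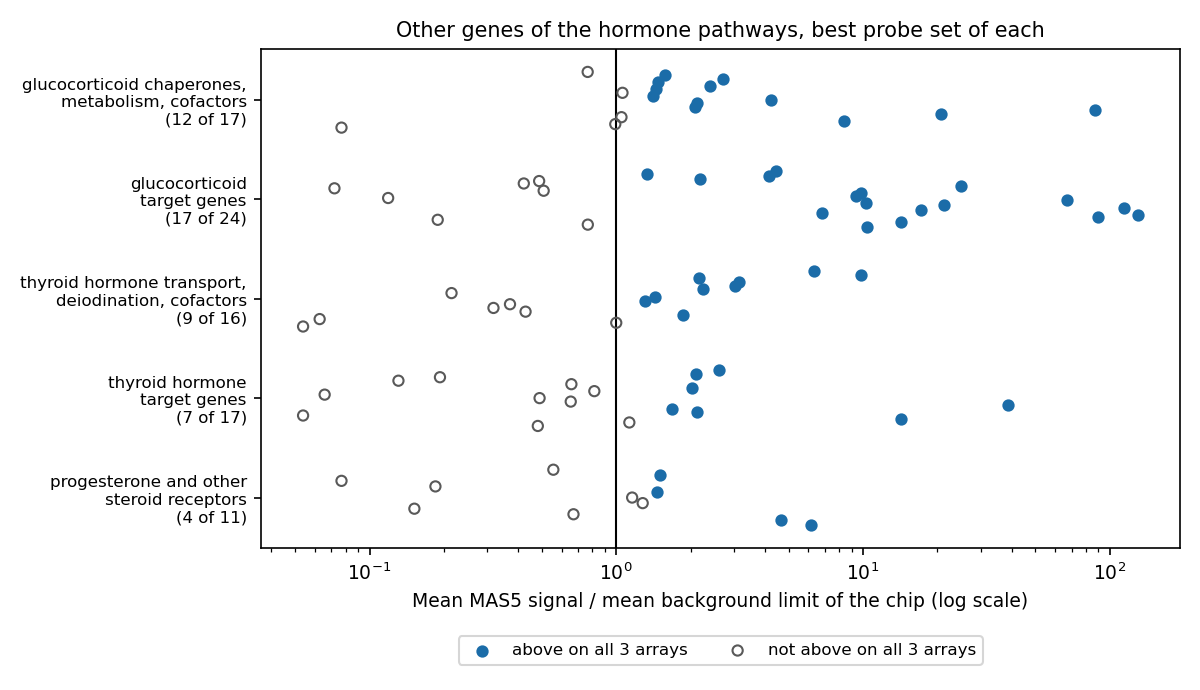
Mean MAS5 signal over the mean background limit of its chip (horizontal log axis, no unit) for the best probe set of each measured gene in 5 lists of the hormone pathways; filled points are genes above the limit on all 3 arrays by at least 1 probe set. Glucocorticoid target genes reach from 0.0721 to 130.2 times the limit, with 17 of 24 above, and thyroid hormone targets from 0.0538 to 38.6 times, with 7 of 17 above.

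The nuclear progesterone receptor gene Pgr was not above the limit by any of 3 probe sets. On MOE430B 1439527_at gave 2573, 3426 and 1368, over the limit in replicate 2 alone (limma, log2 ratio -0.33 ± 0.29, adjusted p = 0.289). Probe set 1421444_at on MOE430A gave 195, 251 and 361 and 1455772_at on MOE430B 85.3, 103 and 182, both below it on all arrays (limma, log2 ratios -1.63 ± 0.35 and -4.63 ± 0.61, adjusted p = 0.00421 and 3.17e-05). A signal below the limit does not show that the receptor is absent.

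Of 11 measured genes for membrane progesterone receptors and other steroid or related receptors, 4 were above the limit, a share of 36.4% that is near the 36.2% of all genes. They were the membrane-associated progesterone-binding proteins Pgrmc1, at 4995 ± 715, and Pgrmc2, at 3750.0 ± 366 (SD, n = 3), the orphan receptor Esrra, at 1211 ± 60.1, and the oestrogen receptor Esr1, at 4226 ± 194 on MOE430B. Pgrmc1 was above by its 1 probe set, Pgrmc2 and Esrra by 1 of 2 and Esr1 by 1 of 3. Limma placed Esr2, at 149.8 ± 3.55, the vitamin D receptor Vdr, at 449 ± 184, and Nr3c2 below the limit (adjusted p = 0.00123, 0.0221 and 0.000513). Of the membrane progesterone receptors of the Paqr family, none was above: Paqr6 gave 174, 328 and 821 on MOE430B, below the limit (limma, adjusted p = 0.00325), and Paqr5, Paqr7 and Paqr8 could not be placed (adjusted p = 0.0822, 0.132 and 0.370).

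Markers of cell types were read to describe the sample, and they do not check its label, which gives muscle cells enriched for Sca1. All 6 markers of fibro-adipogenic and mesenchymal cells were above the limit, at 4.50 to 184 times it. Of 6 myogenic markers 0 were above, although Myog reached a mean of 1.46 times the limit. Of 6 markers each, 2 were above for endothelial cells, 2 for haematopoietic cells and macrophages, 1 for neural cells and 3 for smooth muscle and pericytes, beside 36.2% of all measured genes; counts near that share say nothing about those cell types. Ly6a, the gene of the sort antigen, was not analysed here. The part of these other cells in the signals above was not tested. Control probe sets at the 3' end of Gapdh and actin read 8.55 to 16.5 times those at the 5' end over the 6 arrays. Where the probe sets of Nr3c1, Fkbp5, Thra and Dio2 lie along their transcripts was not used here, and the part of this difference in their disagreement was not tested.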

How the data were processed

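Total RNA of myospheres was measured on 6 Affymetrix arrays, 3 of MOE430A and 3 of MOE430B. The authors deposited linear intensity values, the MAS5 signal named in the submitters' processing notes; the MAS5 version and the scaling target are not given in the sources used here. The mean without the top and bottom 2% of probe sets was 1500.2 to 1501 on every array, so the chips were scaled separately and are read here only against their own limits. No array gives a depth, and having 3 arrays per chip limits the precision.

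Genes were named from the platform annotation: 20393 of 22690 MOE430A probe sets had 1 symbol, 691 several and 1606 none, and 14674, 245 and 7656 of 22575 on MOE430B. Symbols were updated by Entrez number in RefSeq (GRCm38.p6), which held 20364 and 14499 of them. Gene results use the single-gene probe sets alone. The limit used 152 reference probe sets on MOE430A and 44 on MOE430B (receptors for odours, pheromones and taste, and gene families of hair, lens, testis, placenta and mucosal defence).

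Tests used limma 3.58.1 in R 4.3.3, with an intensity trend, and an adjusted p under 0.05 as threshold: log2(signal / limit) against 0 per chip, and a moderated F-test between replicates with the chip as covariate. Both were tested on simulated data. The rest used Python 3.11.15 with scipy 1.17.1, pandas 2.3.3, numpy 2.4.6 and matplotlib 3.10.9. Genes named by rule are the 10, the 5 genes of each list above the limit with the highest ratio to it, and listed nuclear receptors, deiodinases and hydroxysteroid dehydrogenases. Other named genes were chosen after their values were seen. The 10 genes and the lists were chosen with earlier results of these data known.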

Additional observations from a re-analysis of the deposited data

How the results depend on the processing

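The count of 6 genes above the limit was recomputed under 10 alternatives and lay between 5 (1 probe set per gene, without Nr3c1) and 9 (array median as limit). The share of all measured genes above moved with the setting, from 36.2% in the main one to 34.5% and 53.8% in these 2. Leaving out 1 replicate gave 6 to 8 genes, beside 37.6% to 38.6% of all measured genes. The limma count of probe sets above the limit, 8 in the main setting, moved to 13 with the array median as limit, and the count below, 9, moved to 14 with the 99th percentile as limit, 5 with the array median and 1 when dim probe sets were left out, which removes low probe sets by construction. Leaving out 1 replicate gave 7 to 8 above and 8 below, beside 19.6% to 20.0% and 51.6% to 57.0% of all probe sets. Of the steroid receptor list, 4 in the main setting, 2 were above with the 99th percentile and 7 with the array median as limit, beside 27.1% and 53.8% of all measured genes. In 0 of the 7 alternatives run for it did the test between replicates call one of the 10 genes (limma; Nr3c1 had an unadjusted p of 0.0159 to 0.492, and the number of all genes called ranged from 0 to 7). The other 85 of 91 recomputed counts stayed within 1.5 times their main value, and 0 log2 ratios called under both settings changed sign. No paired analysis was possible because the replicate numbers are shared only between the 2 chips, no probe set of the 10 genes is on both, and no result compares the chips. With receptor families alone as reference, the MOE430B limit rested on 15 probe sets. Signal near the limit decides the calls of Tsc22d3, Per1 and Thrb. Pgr, whose best probe set reached 0.538 of the limit on its lowest array, counted as above only with the array median as limit.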
